A study of Mus musculus with 24 samples.

Results

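The Hox genes were the subject here: every probe whose RefSeq accession led to a mouse symbol of the form Hoxa, Hoxb, Hoxc or Hoxd with a number. All 39 Hox genes were found, on 46 probes, among 22911 genes with a symbol on the array. The measurements came from total RNA of kidney, white adipose tissue (WAT), lung and liver taken from male C57BL/6J mice aged 10 weeks (10W) or 90 weeks (90W), with 3 samples in each of the 8 groups of tissue and age. No treatment or allele is named for any group, the fat depot is not given, and nothing in the labels ties samples of different tissues to 1 mouse. P-values therefore measure the spread between these samples. A level is the log2 of the array signal minus that of the 75th percentile of the same array, so that 0 marks the 75th percentile and a difference of 1 is a 2-fold difference in signal. Levels of different genes come from different probes and are not set against each other. Each gene was read from its brightest probe, and a gene counted as expressed in a tissue where that probe was well above background, by the scanner software's own flag, on at least 3 of 6 arrays. The summed levels of hepatocyte, lung epithelium, kidney epithelium and adipocyte markers (sums of scaled signals on a linear scale) were each highest in the labelled tissue, with all markers of its own type well above background on every array.

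Hox genes encode homeodomain transcription factors that give cells their place along the head-to-tail axis. They lie in 4 clusters, HoxA to HoxD, and the number of a gene follows its place in the cluster: low-numbered genes are switched on early and toward the head, high-numbered genes late and toward the tail. Adult connective tissue, epithelium and fat keep much of this address, and Hox proteins bind DNA together with partners of the Pbx, Meis and Pknox families. Genes numbered 1 to 3 are called anterior here, 4 to 8 central and 9 to 13 posterior.

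The promoters of 3 genes on which the results below turn are shown first. Hoxa11 was measured in kidney and was higher at 90 weeks, whereas Hoxd8 and its neighbour Hoxd9 were lower there and stood out together on 1 fat array. RefSeq promoter sequence was on hand for 22 of the 39 genes (24 promoters). Each sequence is the 250 bases before the start of the gene, on the strand of the gene, in the GRCm38.p6 build. Capitals mark a match to any of 4 motifs searched on both strands. The letters TATAAA stood for the core promoter element of that name. The letters CCAAT stood for the box bound by the factor NF-Y. The letters GGGCGG stood for the GC box, and TGATTNAT for a site of Hox and Pbx proteins together.
Hoxa11 (chr6:52245811-52246060, minus strand): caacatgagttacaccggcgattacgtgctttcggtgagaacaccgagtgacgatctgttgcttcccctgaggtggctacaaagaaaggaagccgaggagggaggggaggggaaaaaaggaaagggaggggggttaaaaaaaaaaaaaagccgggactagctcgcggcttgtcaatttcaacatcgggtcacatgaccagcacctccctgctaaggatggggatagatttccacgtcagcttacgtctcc
Hoxd8 (chr2:74704365-74704614, plus strand): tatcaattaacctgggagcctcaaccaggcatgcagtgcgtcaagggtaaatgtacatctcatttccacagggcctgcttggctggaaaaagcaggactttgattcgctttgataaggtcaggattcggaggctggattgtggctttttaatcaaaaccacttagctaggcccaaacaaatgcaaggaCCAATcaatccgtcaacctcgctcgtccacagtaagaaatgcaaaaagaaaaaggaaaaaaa
Hoxd9 (chr2:74697513-74697762, plus strand): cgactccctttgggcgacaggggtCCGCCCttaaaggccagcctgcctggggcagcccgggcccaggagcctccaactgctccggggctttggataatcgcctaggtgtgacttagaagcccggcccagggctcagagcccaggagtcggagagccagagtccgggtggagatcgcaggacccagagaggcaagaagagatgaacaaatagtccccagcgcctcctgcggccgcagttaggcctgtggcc
The search found no match for Hoxa11, 1 CCAAT box for Hoxd8 and 1 GC box for Hoxd9. A CCAAT box was present in 14 of the 24 Hox promoters and in 33.8% of all 32851 promoters, and a GC box in 10 of 24 and 32.7%. TATAAA occurred in 4 of 24 and 12.4%, and the Hox-Pbx site in 2 of 24 and 2.82%. The Hox promoters held a median of 12.5 CpG dinucleotides, against 6 over all promoters.

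The 4 tissues expressed different stretches of the clusters. Liver expressed 15 of 39 Hox genes, lung 17, kidney 31 and WAT 27, beside 71.3%, 77.5%, 77.9% and 75% of all genes with a symbol. Of the 16 posterior genes, liver and lung expressed 1 each, which was Hoxa9, while kidney expressed 10 and WAT 6. Of the 15 central genes, liver expressed 9 and lung 11, and kidney and WAT expressed all 15. The 8 anterior genes differed least, with 5 expressed in liver and in lung and 6 in kidney and in WAT. These counts carry no test.

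**Figure D1:**
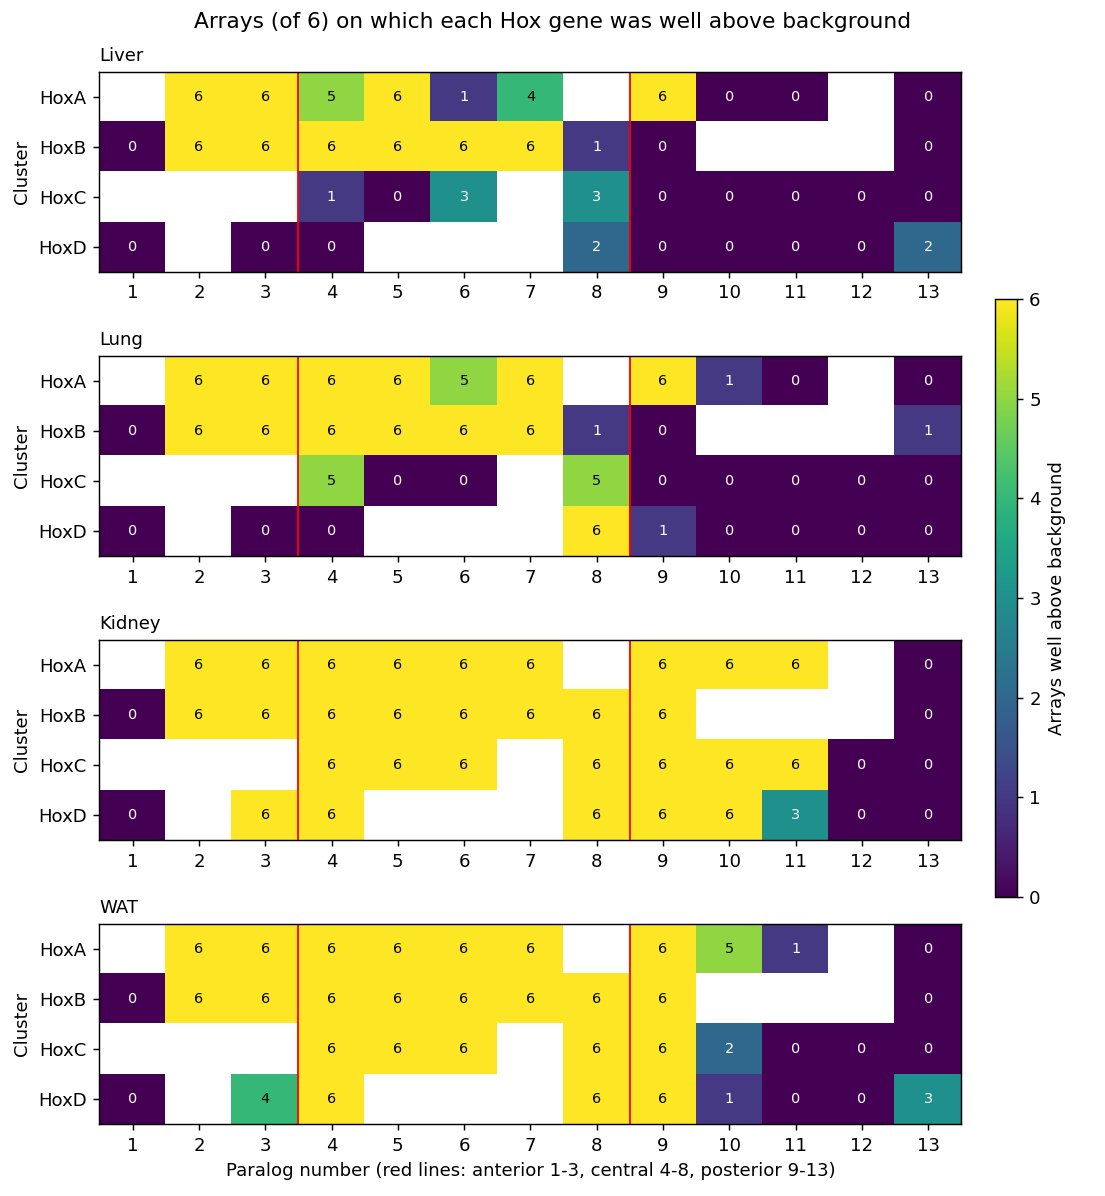
Number of arrays, of 6 per tissue, on which each Hox gene was well above background, with the 4 clusters as rows and the paralog number as columns; blank cells hold no gene in mice or are not shown. Beyond paralog 9 liver shows 2 arrays for Hoxd13 alone and lung 1 array each for Hoxa10 and Hoxb13, kidney is bright to paralog 10 or 11 in HoxA, HoxC and HoxD, and WAT fades after paralog 9 or 10 except for Hoxd13 on 3 arrays.

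Seen by cluster, HoxD separated the tissues most. Of 9 HoxD genes, liver expressed 0, lung 1 (Hoxd8), WAT 5 and kidney 6. Of 9 HoxC genes, liver and lung expressed 2 each, WAT 5 and kidney 7. Of the 11 HoxA genes liver expressed 7, lung 8, WAT 9 and kidney 10, and of the 10 HoxB genes liver and lung 6 each and WAT and kidney 8 each. Expression in all 4 tissues was found for 14 genes, all but 1 of them from HoxA or HoxB, and they included Hoxa2 to Hoxa5, Hoxa7, Hoxa9, Hoxb2 to Hoxb7, and Hoxc8. A further 8 genes were expressed in kidney and WAT alone (Hoxa10, Hoxb8, Hoxb9, Hoxc5, Hoxc9, Hoxd3, Hoxd4 and Hoxd9), 3 in lung, kidney and WAT (Hoxa6, Hoxc4 and Hoxd8), and Hoxc6 in liver, kidney and WAT.

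A group of 5 posterior genes was expressed in kidney and in no other tissue: Hoxa11, Hoxc10, Hoxc11, Hoxd10 and Hoxd11. The Hox10 and Hox11 paralogs pattern the lumbar and sacral body, and Hoxa11, Hoxc11 and Hoxd11 together are required for the kidney to form. Hoxa11 was well above background on 6 kidney arrays, on 1 WAT array (the second aged sample, at -4.11) and on no liver or lung array. Its kidney signal was at least 20.1-fold above liver (limma adjusted p = 9.17e-11) and at least 35.8-fold above lung (adjusted p = 1.68e-11), a bound set by the dimmest signal still well above background. Hoxc11 read 6 kidney arrays and none elsewhere, at levels of -3.2, -4.08 and -2.91 at 10 weeks and -3.18, -2.98 and -3 at 90 weeks. Kidney Hoxc11 was at least 5.31-fold above WAT (adjusted p = 2.62e-13). Hoxd10 read 6 kidney arrays and 1 WAT array, and its kidney level averaged -0.97. It was at least 14.3-fold above liver (adjusted p = 5.82e-12) and at least 25.5-fold above lung (adjusted p = 3.16e-12). Hoxc10 was also on 2 WAT arrays, and Hoxd11 was the weakest of the 5, on 3 kidney arrays only.

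No tissue expressed 7 Hox genes. These were Hoxb1 and Hoxd1 at the anterior end and Hoxa13, Hoxb13, Hoxc12, Hoxc13 and Hoxd12 at the posterior end. Hoxb13 is known from prostate, Hoxc13 from hair follicles, and Hoxa13 from limb tips and the urogenital tract. Hoxd13, a gene of the digits and the genital tubercle, reached the 3 arrays in WAT alone, on all aged samples and no young one, and was also well above background on 2 liver arrays. Its WAT levels were -6.01, -5.58 and -6.01 at 10 weeks and -5.29, -4.94 and -3.75 at 90 weeks, at least 1.88-fold higher with age, and its age change did not pass the test (adjusted p = 0.201). Hoxd13 counted as expressed in WAT, and entered the test, through its aged arrays alone. The bound and the p are therefore not separate support for a rise.

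The choice of probe touched these counts for 4 of the 7 Hox genes that have 2 probes. The brighter Hoxa9 probe was well above background on all arrays of every tissue, but its other probe was so on 0 liver arrays, 0 lung arrays, 5 WAT arrays and 6 kidney arrays. The other Hoxa3 probe read 0 liver arrays, the other Hoxb3 probe 2 liver arrays, and the other Hoxa10 probe 2 WAT arrays against 5. When every probe of a gene had to pass, a rule chosen after seeing the data, liver expressed 12 Hox genes, lung 16, kidney 31 and WAT 26, and no posterior gene was left in liver or lung.

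Levels were then compared between tissues, averaged over both ages, in a fit of all 24 arrays. Each tissue lay on 1 slide of its own, so slide and tissue cannot be told apart, and in whole tissue fewer cells of a type and less RNA per cell cannot be told apart. Among Hox genes expressed in both tissues of a pair, 12 of 14 differed between liver and lung (76.6% of all 34160 entries differed), 14 of 15 between liver and kidney (65.8%) and 14 of 15 between liver and WAT (71.1%). The count was 14 of 17 between lung and kidney (69%), 13 of 17 between lung and WAT (62.4%) and 17 of 26 between kidney and WAT (60.6%). The shares in brackets cover every entry of the fit, also those not expressed in both tissues, so they are not like for like. Over all 32 Hox genes in the fit, the counts in the same order of pairs were 21, 31, 28, 28, 26 and 23.

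Of the 14 genes expressed everywhere, 11 had their lowest mean level in liver, in each case below the next tissue at an adjusted p under 0.05. The same was true of 13.8% of the 25754 entries expressed in all 4 tissues. Kidney was highest for 6 of the 14 genes (5 of them above the next tissue by the test, as were 8.92% of the entries), lung for 5 (all 5, 10.3%), WAT for 2 (both, 9.77%) and liver for 1 (Hoxb3, not above the next, 25.4%). The orders of Hoxb3 and Hoxa9 rest on the probe. The other Hoxb3 probe averaged -4.88 in liver, -1.57 in lung and in kidney, and -1.40 in WAT. The other Hoxa9 probe averaged -0.03 in kidney and -5.12 in WAT, and was well above background on no liver or lung array.

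Lung was highest for Hoxa2, Hoxa3, Hoxa4, Hoxa5 and Hoxb5. Hoxa5, which is needed for the airways and lungs to mature, read 1.12, 0.81 and 0.94 in young lung and 0.36, 0.77 and 0.8 in aged lung. No other tissue reached this range: young kidney read -0.65, -0.56 and -0.62, aged kidney -0.64, -0.61 and -0.56, young WAT -0.95, -0.53 and -0.5, and aged WAT -0.71, -0.8 and -0.09. The liver arrays lay between -4.37 and -3.06. Lung exceeded WAT by 1.40 ± 0.17 (SE, adjusted p = 1.14e-06) and liver minus lung was -4.45, whereas kidney and WAT differed by -0.01 ± 0.17 (adjusted p = 0.969). Hoxb5, a gene of airway branching, averaged 0.54 in lung and -0.77 in kidney (adjusted p = 1.33e-05), and Hoxa2, which patterns the pharyngeal arches, -1.80 in lung and -3.37 in WAT (adjusted p = 2.79e-08).

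WAT was highest for the HoxC genes Hoxc4, Hoxc5 and Hoxc8. Hoxc8, known as a marker of white fat, read 2.35, 3.35 and 3.24 in young WAT and 1.57, 1.96 and 1.53 in aged WAT. Kidney came next, with a mean of -1.07, and kidney minus WAT was -3.41 ± 0.21 (SE, adjusted p = 1.37e-10). Liver and lung, at -4.47 and -4.64, did not differ beyond their spread (adjusted p = 0.476). Hoxc4 averaged 1.37 in WAT and -0.98 in kidney (adjusted p = 2.13e-06), and Hoxc5 -1.15 and -4.04 (adjusted p = 1.3e-07). For Hoxc6 the order of WAT (2.25) and kidney (1.75) was not resolved (adjusted p = 0.149), and WAT was at least 225-fold above lung (adjusted p = 2.49e-14).

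Kidney was highest for Hoxa6, Hoxa7, Hoxa9 and Hoxa10, for Hoxb2 and Hoxb6 to Hoxb9, and for Hoxd3, Hoxd8 and Hoxd9, each above the next tissue by the test. Hoxd8 averaged 4.30 in kidney, 2.53 in WAT and -3.54 in lung, and each step passed the test (adjusted p = 5.93e-05 and 7.12e-12). Hoxa10 averaged 3.11 in kidney and -3.78 in WAT, a difference of 6.89 ± 0.60 (SE, adjusted p = 1.23e-08). Hoxa7 averaged 3.37 in kidney and 2.51 in WAT (adjusted p = 0.00756), and Hoxb9 2.45 and -0.92 (adjusted p = 2.04e-06). Hoxc9, Hoxb4 and Hoxd4 had their highest mean in kidney without passing: kidney minus WAT was 0.25 ± 0.17 (adjusted p = 0.203) for Hoxc9 and 0.01 ± 0.17 (adjusted p = 0.973) for Hoxb4, and Hoxd4 had an adjusted p of 0.139. Hoxc9 in kidney was at least 147-fold above lung and at least 82.6-fold above liver.

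**Figure D2:**
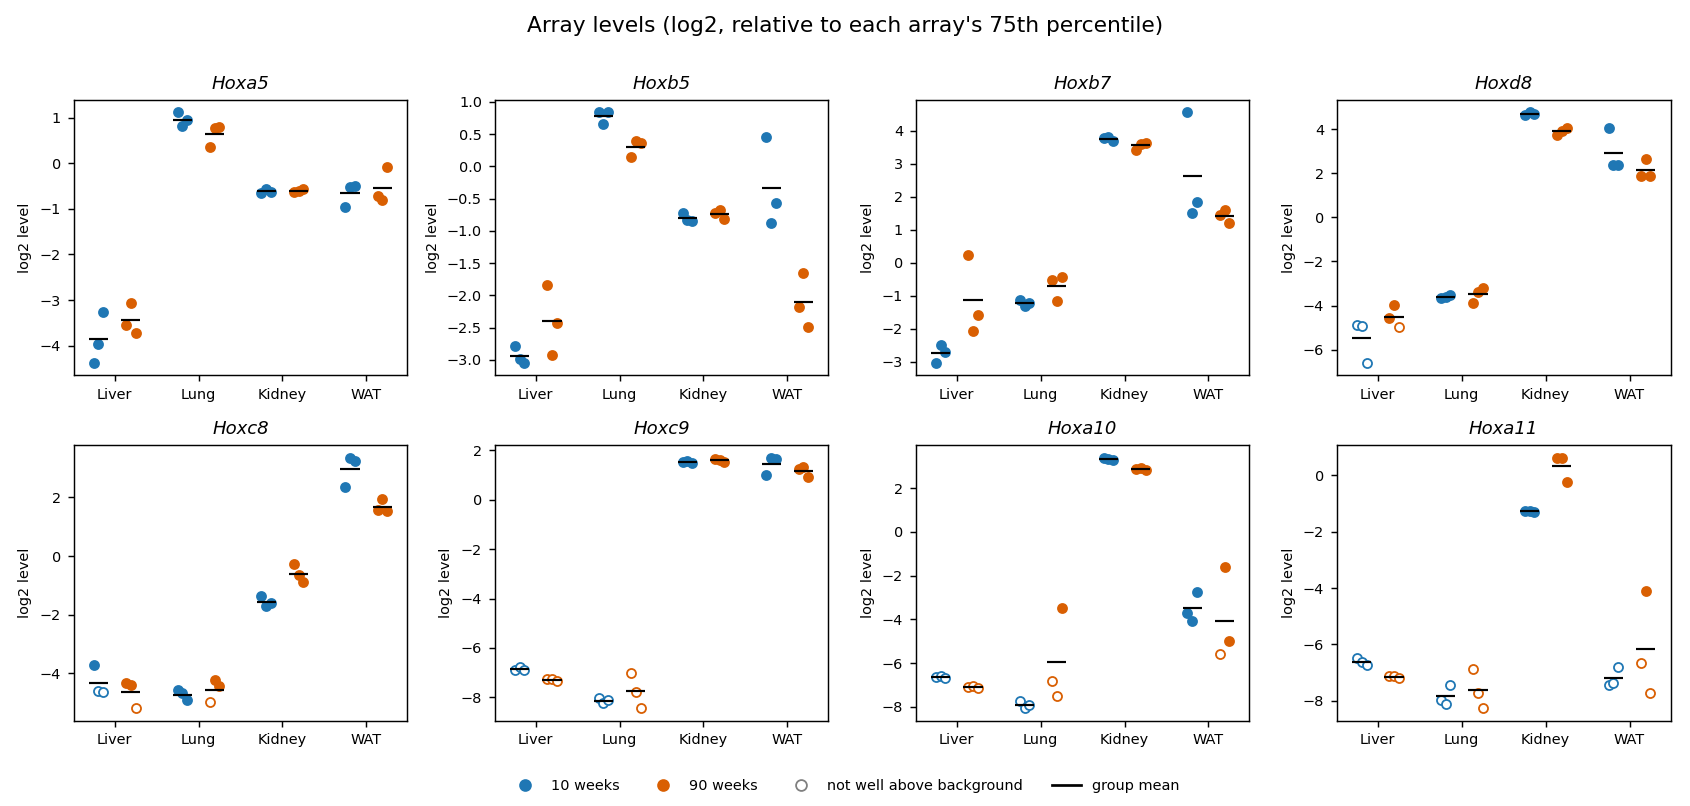
Levels of 8 Hox genes on the 24 arrays (log2, with 0 at the 75th percentile of each array; each panel has its own axis). Points are single arrays, blue at 10 weeks and orange at 90 weeks, open where not well above background, and bars are group means; Hoxa5 and Hoxb5 are highest in lung, Hoxc8 in WAT, Hoxa10, Hoxa11 and Hoxd8 in kidney.

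The levels just given for WAT rest in part on 1 array. Replicate 1 of the 10-week WAT stood apart from the other 5 WAT arrays: 1909 of 30039 entries (6.36%) read over 1 log2 unit above all 5, and so did 11 of the 27 Hox genes expressed in WAT. The 11 were Hoxb2, Hoxb3, Hoxb5, Hoxb6, Hoxb7, Hoxb8, Hoxb9, Hoxd3, Hoxd4, Hoxd8 and Hoxd9. Hoxb6 read 3.47 on that array, -0.73 and -0.21 on the other young arrays, and -1.2, -1.04 and -1.17 on the aged ones. Hoxb8 read 1.17, against -2.95 and -2.58 in the other young samples and -3.52 to -2.44 in the aged. Hoxd3 read -1 against -5.47 and -4.99, and its aged values lay between -6.02 and -5.1.

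The excess followed the clusters. All 8 HoxB genes expressed in WAT had their highest value on that array, 7 of them by over 1, and so had 4 of 5 HoxD genes, all 4 by over 1. The exception in HoxD was Hoxd13. In contrast 0 of 9 HoxA genes and 0 of 5 HoxC genes were highest there. Against the mean of the other young WAT arrays, the median difference was 2.72 for HoxB, 1.92 for HoxD, -0.28 for HoxA and -0.75 for HoxC.

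**Figure D3:**
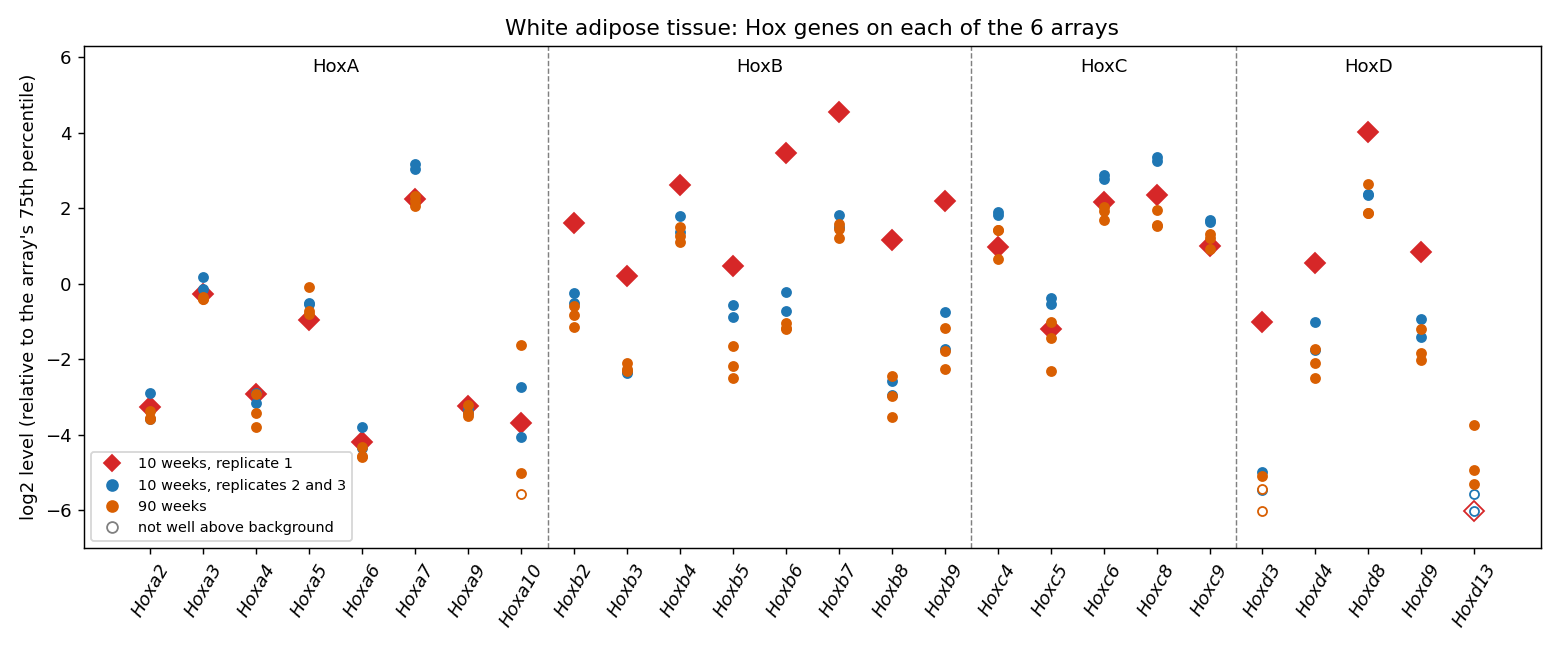
Levels of Hox genes expressed in WAT on the 6 WAT arrays (log2, with 0 at the 75th percentile of each array), grouped by cluster; the red diamond is replicate 1 at 10 weeks, blue the other young samples and orange the aged ones, and open symbols are not well above background. The diamond is the highest point for all 8 HoxB genes and for Hoxd3, Hoxd4, Hoxd8 and Hoxd9, and for no HoxA or HoxC gene.

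Markers of epididymis moved with that array. The 6 markers, secreted or surface proteins of that duct, were all well above background there, and their summed level was 806, against 0.418 and 2.07 in the other young WAT samples and 0.367 to 0.511 in the aged. Adam7 read 7.45 there and 0.37 in replicate 3, and lay between -6.7 and -4.12 on the other 4 arrays. Crisp1 read 7.58 there and -1.82 in replicate 3, and between -7.9 and -7.05 elsewhere, and Lcn5 read 8.76 against -2.6 or less. Rnase10 was the exception, at -1.86 there and -1.87 to -1.08 elsewhere. Defb1 read 2.47 against -7.78 or less, and Lcn8 -4.26 against -7.37 or less. The 6 kidney epithelium markers, some of which other ducts share, summed to 23.7 on that array and 0.333 to 1.37 on the other 5. Fibroblast markers summed to 225 on that array against 336 to 501 on the others, and mesothelium markers to 8.33 against 10.7 to 63.2. The part of any of these cells in the Hox levels was not tested. Without this array 19 of 26 Hox genes differed between kidney and WAT in place of 17.

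The second question was which Hox genes differed between 90 and 10 weeks within a tissue. Each age comparison ran over all entries expressed in the tissue, and a call is an adjusted p under 0.05. With 3 against 3 samples an exact permutation test of 1 gene cannot give a p below 0.1, so the calls rest on limma's shared estimate of the spread. Of the Hox genes tested, 4 rose and 2 fell in liver (15 tested; 10.6% and 16.8% of all entries rose and fell), 0 rose and 2 fell in lung (17; 2.7% and 2.86%), 4 rose and 10 fell in kidney (31; 20.7% and 42.5%), and 0 rose and 0 fell in WAT (27; 1.99% and 0.566%). The shares of Hox genes called in kidney lay below the shares of all entries. The median Hox change was 0.42 in liver, -0.17 in lung, -0.09 in kidney and -0.72 in WAT, beside medians over all entries of -0.20, -0.08, -0.23 and -0.05.

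**Figure D4:**
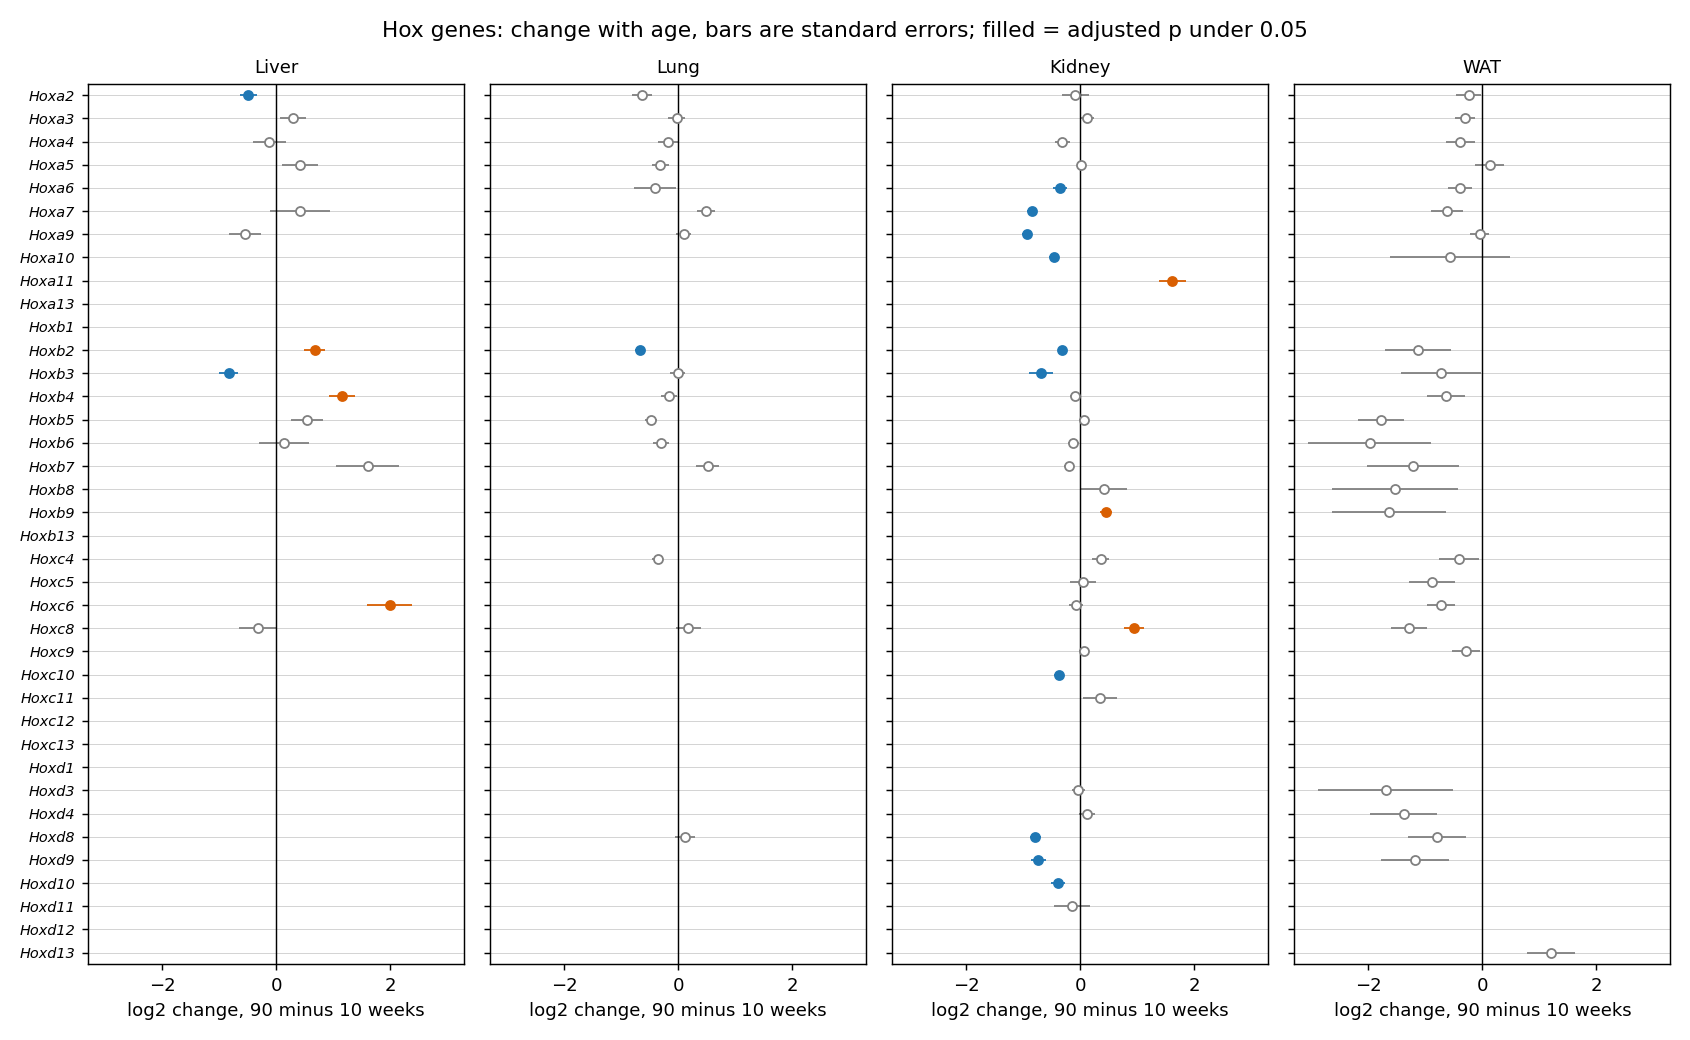
Change of tested Hox genes from 10 to 90 weeks in the 4 tissues (log2, 90 minus 10 weeks; bars are standard errors of the limma fit); filled orange points rose and filled blue points fell at an adjusted p under 0.05, open points did not pass, Hoxc6 in liver and Hoxd13 in WAT are fitted against young samples not well above background, and genes without a point in a panel were not tested there. Calls lie on both sides of 0 in liver and kidney, and in WAT all but Hoxa5 and Hoxd13 lie below 0 with none filled.

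Groups that did not overlap were counted too: 5 genes higher and 2 lower in liver (16.9% and 32.9% of all entries), 1 and 6 in lung (11.6% and 24.2%), 5 and 10 in kidney (23.2% and 47.5%) and 1 and 6 in WAT (13.7% and 15%). The 1 higher gene in WAT was Hoxd13 and 1 of the 5 in liver was Hoxc6, each tested through its aged arrays alone.

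Kidney held the most calls, and they divided neighbours within a cluster. Hoxa11 rose while Hoxa10, Hoxa9, Hoxa7 and Hoxa6 fell. Hoxa11 read -1.28, -1.28 and -1.31 at 10 weeks and 0.61, 0.6 and -0.24 at 90 weeks. The groups did not overlap, and the change was 1.62 ± 0.24 (SE, limma adjusted p = 0.00172). The antisense transcript Hoxa11os, which runs along the same locus, rose by 1.02 (adjusted p = 0.00319). Hoxc8 rose from -1.36, -1.69 and -1.6 to -0.27, -0.65 and -0.88 (0.95 ± 0.18, adjusted p = 0.00452). Hoxb9 rose from 2.17, 2.22 and 2.28 to 2.56, 2.86 and 2.59 (0.45 ± 0.11, adjusted p = 0.0108).

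The falls in kidney were led by genes of paralog groups 7 to 9. Hoxa9, a regulator of blood progenitors as well as of the lower trunk, read -0.6, -0.73 and -0.67 at 10 weeks and -1.59, -1.64 and -1.59 at 90 weeks (-0.94 ± 0.07, adjusted p = 0.00024). Its other probe moved alike, by -1.01. Hoxa7, which patterns the trunk, read 3.83, 3.78 and 3.77 and then 2.87, 2.88 and 3.09 (-0.85 ± 0.09, adjusted p = 0.000572). The groups of both genes were far apart for their spread. Hoxd8 read 4.62, 4.76 and 4.7 and then 3.75, 3.93 and 4.03 (-0.79 ± 0.10, adjusted p = 0.00101), and Hoxd9 read 1.5, 1.51 and 1.4 and then 0.47, 0.95 and 0.79 (-0.73 ± 0.13, adjusted p = 0.00398). These are the neighbours whose promoters are printed above.

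The other 6 that fell in kidney changed by -0.69 (Hoxb3) to -0.32 (Hoxb2), with Hoxa10, Hoxd10, Hoxc10 and Hoxa6 between. The age groups of Hoxa6 overlapped, and the other Hoxb3 probe changed by 0.01. The scale matters here: when arrays were scaled to their spike-in spots, the median over all kidney entries moved from -0.23 to 0.15. On that scale 9234 of all entries rose and 4492 fell, in place of 6510 and 13375, and 7 Hox genes rose and 3 fell. Hoxa7, Hoxa9 and Hoxd8 still fell (-0.46, -0.56 and -0.41), Hoxd9 no longer passed (-0.35, adjusted p = 0.145), the added rises were Hoxa3, Hoxc4 and Hoxd4, and Hoxa6, Hoxb2 and Hoxc10 changed sign (0.03, 0.06 and 0.01). In 1 fit of all 24 arrays Hoxa9 was the 1 Hox gene that fell in kidney, and Hoxb9, Hoxa7, Hoxd8 and Hoxd9 did not pass.

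**Figure D5:**
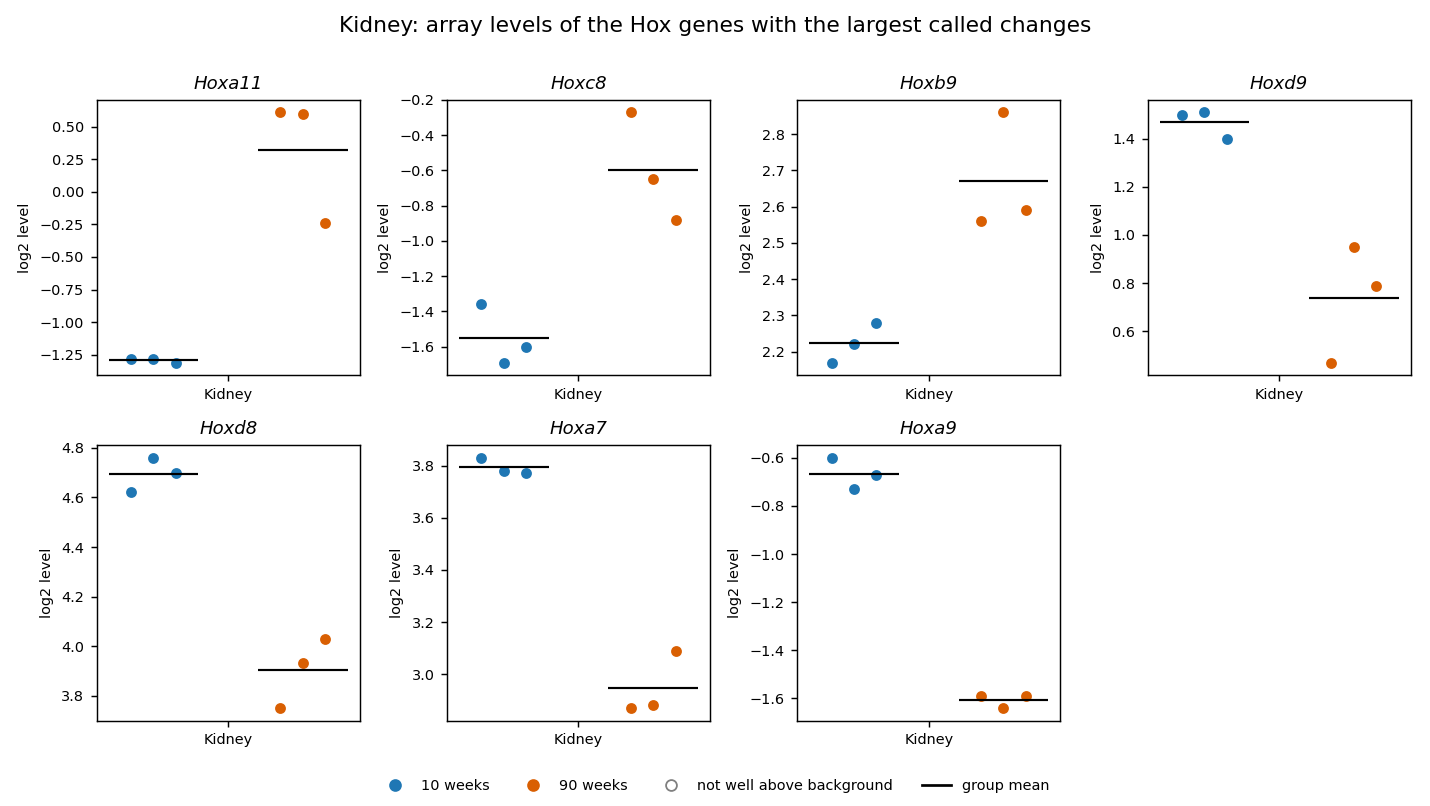
Kidney levels of 7 Hox genes among the largest called changes in each direction (log2, with 0 at the 75th percentile of each array; each panel has its own axis). Blue points are the 3 samples at 10 weeks, orange points the 3 at 90 weeks and bars the group means; the ages do not overlap in any of the 7 panels.

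Cell type markers moved in the same kidneys. The summed level of 6 fibroblast markers was 15.7 to 18.4 at 10 weeks and 78.4 to 108 at 90 weeks, with 6 of 6 markers higher by the test, and that of 6 leukocyte markers was 17.2 to 25.7 and then 40 to 59.6 (5 of 6 higher). The 6 kidney epithelium markers summed to 750 to 882 and then 290 to 512 (5 of 6 lower), and the 5 mesothelium markers to 3.04 to 3.26 and then 6.89 to 8.58. Most of the young mesothelium sum was Wt1, at 1.44 to 1.53. Most of its rise was Krt19, from -2.89, -2 and -1.78 to 2.03, 1.93 and 1.82. Lrrn4 was well above background on no kidney array, so this sum is not a measure of mesothelium as a whole. All fibroblast and epithelium markers were well above background on every kidney array. The part of these cells in the Hox changes was not tested.

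In liver the calls were fewer and lay nearer to background. Hoxc6 was not well above background on any young array and was so on all 3 aged ones, at -3.54, -4 and -3.5, at least 1.97-fold higher (adjusted p = 0.0154). It entered the test through its aged arrays alone, so this p is not separate support for the rise. Before scaling, the 75th percentile of signal was 259 to 307 on young and 340 to 448 on aged liver arrays. The part of this difference was not tested. Hoxb4, a gene known for expanding blood stem cells, read -1.17, -1.47 and -1.15 at 10 weeks and then -0.07, 0.24 and -0.49 (1.16 ± 0.22, adjusted p = 0.0144). Hoxb2 rose from -3.31, -3.44 and -3.11 to -2.32, -2.76 and -2.76 (0.67 ± 0.19, adjusted p = 0.0398). The ages overlapped for none of Hoxc6, Hoxb4 and Hoxb2.

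Of the liver genes that fell, Hoxb3 read -0.89, -1.14 and -1.21 and then -1.71, -2.02 and -2 (-0.83 ± 0.17, adjusted p = 0.0172). Its other probe, well above background on 2 liver arrays only, changed by 0.76, so the direction rests on the probe. Hoxa2 read -3.77, -3.97 and -3.96 and then -4.38, -4.33 and -4.44 (-0.49 ± 0.15, adjusted p = 0.049). Hox genes well above background on no liver array also read lower at 90 weeks, by between -0.18 (Hoxd4) and -1.01 (Hoxc5), with Hoxa10 at -0.46. The change of Hoxa2 lay within that range, and with spike-in scaling it was -0.37 (adjusted p = 0.495). Hoxb7 read -3.02, -2.49 and -2.7 and then 0.24, -2.06 and -1.57, and the change of 1.60 ± 0.56 did not pass (adjusted p = 0.0698). Without replicate 2 of the 10-week liver no Hox gene passed in either direction, and without replicate 1 of that group 2 rose and none fell. Calls over all entries dropped too, from 2947 rises and 4686 falls to 1508 and 977 without replicate 2. Without replicate 1 they were 1781 and 1185. Hoxb2 and Hoxa2 lost their calls whichever of the 6 samples was left out. With spike-in scaling 3 Hox genes rose and 0 fell, and the split over all entries was 2561 and 947 in place of 2947 and 4686. Fibroblast markers summed to 56.4 to 71.5 in young and 138 to 158 in aged liver, leukocyte markers to 16.9 to 18.6 and then 38.5 to 57.2 (3 of 6 higher by the test), and haematopoietic progenitor markers to 219 in aged replicate 2 and 4.71 and 5.01 in the other aged samples. Their part in the Hox changes was not tested. Without aged replicate 2 the rise of Hoxb4 was 0.98.

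In lung Hoxb2, a gene of the hindbrain, fell. It read 0.42, 0.38 and 0.22 at 10 weeks and then -0.32, -0.35 and -0.34 (-0.67 ± 0.09, adjusted p = 0.0201). Its ages did not overlap, nor did those of Hoxa2, Hoxa5, Hoxb5 and Hoxc4, with lower aged values, and Hoxa7, with higher ones. Leaving out any 1 of the 3 young lungs took the call past the threshold, with adjusted p of 0.06 to 0.104. Most calls over all entries were lost as well, from 819 rises and 868 falls with all samples. They became 1 and 1 without young replicate 1, 16 and 8 without replicate 2, and 133 and 73 without replicate 3. Replicate 1 of the aged lung held hepatocyte markers at a summed level of 223, against 2.96 to 19.6 in the other lungs, and without it Hoxb2 changed by -0.68 (adjusted p = 0.0377). Smooth muscle and pericyte markers summed to 68.3 to 86.2 in young and 42.7 to 47.7 in aged lung (3 of 5 lower by the test). Fibroblast markers summed to 104 to 134 and then 41.4 to 64.4 (0 of 6 lower), and cardiac muscle markers to 59 to 193 and then 8.6 to 136. The part of these cells was not tested.

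In WAT 25 of 27 Hox genes had lower mean levels at 90 weeks. The median change over all entries was -0.05, and how many of them read lower was not counted. Genes of a cluster moved together on replicate 1 of the 10-week WAT, so the 25 are not separate results. None of the 27 passed the test. Hoxb5 came nearest: 0.46, -0.88 and -0.57 at 10 weeks against -2.18, -1.65 and -2.49 at 90 weeks, a change of -1.78 ± 0.41 (adjusted p = 0.0891). Hoxc8 changed by -1.29 ± 0.31 (adjusted p = 0.101). Without replicate 1 of the 10-week WAT the median Hox change was -0.47 in place of -0.72, 24 of 27 means were lower, and Hoxc8 was the gene that passed (-1.60, adjusted p = 0.0351). The same removal shrank the changes of Hoxb6 from -1.98 to -0.67, of Hoxb8 from -1.53 to -0.21 and of Hoxd3 from -1.70 to -0.29, and turned that of Hoxb3 from -0.73 to 0.11. Leukocyte markers summed to 23.4 to 44.5 in young and 115 to 246 in aged WAT, and their part was not tested.

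Whether the age change differed between tissues was tested with an interaction term over all 24 arrays. It passed for 7 of 32 Hox genes, beside 31.2% of all entries. Hoxb5 (adjusted p = 0.00177) changed by 0.54 in liver, 0.06 in kidney, -0.48 in lung and -1.78 in WAT. Hoxc8 (adjusted p = 0.00471) changed by 0.95 in kidney and -1.29 in WAT. Without replicate 1 of the 10-week WAT the count was 11.

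Partner proteins and regulators were counted from fixed lists. Of the 9 Pbx, Meis and Pknox cofactors, all expressed in every tissue, 6 rose and 2 fell in kidney, where 20.7% and 42.5% of all entries did, 1 fell in liver, where 16.8% did, and none passed in lung or WAT. In kidney Pknox2 rose by 2.46 (adjusted p = 0.000274) and Pbx4 was at least 1.96-fold higher (adjusted p = 0.00242), while Pknox1 changed by -0.70 (adjusted p = 0.00102). Of 19 chromatin regulators of the Hox clusters, the Polycomb and trithorax proteins that hold them silent or active, 1 rose and 7 fell in kidney and 1 fell in liver (Men1, -0.60, adjusted p = 0.0294), shares no higher than those of all entries just given. The kidney rise was Phc2 (0.42, adjusted p = 0.00706), and Cbx2 and Cbx8, which read the Polycomb mark, changed by -0.94 (adjusted p = 0.00337) and -0.82 (adjusted p = 0.00433).

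Genes beside or within the clusters were mixed. Of 7 neighbours and noncoding genes, 6 were tested in kidney and WAT and 5 in liver and lung. Hoxa11os rose in kidney and Hoxd3os1 (-1.07, adjusted p = 0.000643) and Hoxb5os (-0.89, adjusted p = 0.000306) fell there. In liver Evx2 (-1.03, adjusted p = 0.0215), Hoxa11os (-0.86, adjusted p = 0.0194) and Hoxb5os (-0.66, adjusted p = 0.0419) fell, and none passed in lung or WAT. Of all entries, 20.7% rose and 42.5% fell in kidney, and 16.8% fell in liver. Hox genes well above background on no liver array changed by -0.18 (Hoxd4) to -1.01 (Hoxc5) there. The liver changes of Hoxa11os and Hoxb5os lay within that range, and that of Evx2 just beyond it. Hoxa11os overlaps Hoxa11 on the other strand. Of the 6 ParaHox and Cdx genes, relatives of the Hox genes, Gsx2 fell in kidney (-1.84, adjusted p = 0.000334) and liver (-1.44, adjusted p = 0.0144), and its changes in lung and WAT did not pass. The 1 other gene of this list that was tested was Cdx1, in kidney (-0.50, adjusted p = 0.0976), and the rest were not well above background on enough arrays of any tissue.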

How the data were processed

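Total RNA was hybridised to 1-colour (Cy3) Agilent arrays, 24 in all, 3 per tissue and age. The deposited spot intensities are per the file headers from Agilent Feature Extraction 11.0.1.1, background-subtracted by the authors' scanner software; the file headers name a mouse design on the mm9 build, while the methods name a human kit. Array number, not read depth, limits precision. Of 56605 probes, 58.3% matched a RefSeq symbol. For each array the 75th percentile was subtracted from log2 intensity. Per gene the brightest probe over all 24 arrays was kept, and in a tissue only if well above background on at least 3 of 6 arrays. Ages were compared within each tissue, tissues and the interaction over all arrays, with limma 3.58.1 (R 4.3.3) and Benjamini-Hochberg adjustment over all entries. Both ages of a tissue shared a slide and a scan.

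Named genes were, per tissue and direction, the 4 largest called changes without overlap of the ages and with the brighter age well above background on all its arrays, Hox genes on all 6 arrays of 1 tissue and at most 1 array of each other, the 5 smallest interaction p-values and up to 2 called genes per direction of each further list; other genes were named after their values were seen. The members, lists and tests were chosen with earlier results of these data known. Alternatives were background correction, quantile and spike-in scaling, median centring, no filter, other probe rules, 1 fit of all arrays, a replicate block, the methods' t-test, each age alone for tissue pairs, and each sample left out; requiring every probe of a gene was added after seeing the data. Scripts were tested on simulated data. The series-wide text file was not used. Of the genes in the totals, 1 Hox gene and 1 cofactor are not reported here.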

Additional observations from a re-analysis of the deposited data

Results flagged for a closer look

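A change with age that differed between tissues was found by the interaction test for the 6 Hox genes given here, each value an adjusted p of the limma F-test over 24 arrays. The test passed for 7 of 32 Hox genes, no higher a share than the 31.2% of all entries, so it does not set Hox genes apart. Hoxb5 (0.00177) changed by 0.54 in liver and -1.78 in WAT. Hoxb4 (0.00318) changed by 1.16 in liver and -0.64 in WAT, with -0.16 in lung and -0.09 in kidney. Hoxc8 (0.00471) changed by 0.95 in kidney and -1.29 in WAT. Hoxc6 (0.00994) was at least 1.97-fold higher in aged liver, where no young array was well above background, and changed by -0.72 in WAT; lung, with no array well above background, also entered this test. Hoxa9 (0.0171) changed by -0.94 in kidney and 0.09 in lung; its adjusted p ranged from 0.0023 to 0.321, the latter with spike-in scaling, and was 0.139 with the mean of its probes. Hoxb2 (0.0361) changed by 0.67 in liver, -0.67 in lung and -1.13 in WAT, the last being -0.47 without replicate 1 of the 10-week WAT. Its adjusted p ranged from 0.000335, without that replicate, to 0.121, with normexp background correction. It passed in 15 of 28 alternatives.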

How the results depend on the processing

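Of 380 alternative counts, 346 stayed within 1.5 times the value given. For single genes, 551 of 628 kept direction and side of the threshold, 72 fell below it, 4 rose above it and 1 reversed. The reversal was Hoxb3 in WAT without replicate 1 of the 10-week samples (0.11, from -0.73; without replicate 3 it was -1.17). In liver the 4 rises became 2 with normexp background correction, 2 with the replicate block and 0 with the methods' t-test. The 2 falls became 1 with normexp, with quantile normalization, with the mean of a gene's probes and in 1 fit of all arrays, 0 with spike-in scaling and with the block, and 16 with no filter on dim probes. Having no filter lets in genes on no liver array, and 12867 of 45622 entries fell in that setting. The block compared the ages of liver through replicates 1 and 2 only. Replicate 3 of liver exists at 10 weeks alone and replicate 4 at 90 weeks alone. In lung the 2 falls became 0 with spike-in scaling, no filter, the block and the t-test, and 1 in the fit of all arrays. In kidney spike-in scaling gave 7 rises and 3 falls, and the fit of all arrays 1 fall, with 8974 falls over all entries in place of 13375. In WAT that fit gave 5 falls, with 3036 falls over all 30042 entries in place of 170. Between kidney and WAT, 11 genes differed with 10W arrays only. Leaving out 1 sample gave 0 to 4 rises and 0 to 1 falls in liver, 0 to 1 and 0 to 3 in lung, 4 to 5 and 7 to 9 in kidney, 0 and 0 to 1 in WAT, and 6 to 11 genes in the interaction test. Beyond these, the cause was not tested. Replicate numbers do not pair the samples: same-number correlations ran from -0.164 (lung) to 0.181 (WAT), and the replicate block moved no kidney or WAT count by over 1.5 times. In kidney, where they were 0.095, 0.046 and 0.029, every young sample correlated best with its own number, a hint from the data only.

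Spike-in scaling moved the median over all entries in liver from -0.20 to -0.09. Genes near background, which include most Hox genes in liver, have compressed changes, and a gene not well above background is not shown to be absent.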
